A study of Mus musculus with 24 samples.

Results

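The AMPA and kainate receptor subunits are the 4 genes Gria1 to Gria4 and the 5 genes Grik1 to Grik5, 9 of the 24813 gene symbols with a probe on the array. They were taken by name: each gene probe whose deposited gene name was one of the 9 symbols was a candidate (23 probes, 21 of them tested), and each gene was read through the candidate with the highest mean over the 24 arrays in the authors' log2 table, with its other probes as a check. All 9 chosen probes were tested. AMPA and kainate receptors are glutamate-gated cation channels built from 4 subunits. GluA1 to GluA4, encoded by Gria1 to Gria4, form AMPA receptors, and the edited form of GluA2 keeps calcium from passing. GluK1 to GluK3, encoded by Grik1 to Grik3, can form kainate receptors on their own, whereas GluK4 and GluK5 need one of them as a partner. In the peripheral nervous system, small-diameter sensory neurons are known for kainate currents carried by GluK1.

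Total RNA of C57BL/6 mice was hybridized to 1-colour Agilent arrays. The samples were efferent (EN, ventral root) and afferent (AN, dorsal root) nerve fibres of segments L4 to L6 at birth (P0) and at 1, 3 and 5 weeks (1 W, 3 W, 5 W), giving 8 groups of 3 arrays. No treatment or genotype other than the strain is named for any group, and the study describes both sexes used equally. It used 9 animals per age with the fibres collected into 1 tube per group, and 3 independent experiments, and since nothing ties an array to separate animals, p values measure only the spread between these arrays, which may be technical. Values are log2 signals after quantile normalization, each with n = 3 arrays. Testing was limited to the 36398 probes that some group showed well above background on each of its 3 arrays, and a difference was called if limma's Benjamini-Hochberg adjusted p was below 0.05 with a fold change above 2. Levels of different genes were not set against each other, since each probe has its own brightness.

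The arrays lay on 4 slides. Arrays of AN and EN with the same number always shared a slide, so that every AN-EN difference was measured within slides. All 3 W arrays lay on a slide without P0 or 1 W, beside only AN and EN replicate 3 at 5 W. A slide block therefore adjusts changes to or from 3 W through those 5 W arrays alone. Median signals per array ran from 45.4 to 191, and local backgrounds from 23 to 46. All 10 Schwann cell markers were above background in every group. Of 11 sensory neuron markers 10 were tested, and none was called between AN and EN at P0, while 8 were higher in AN at 1 W, 2 at 3 W and 1 at 5 W, and none lower. Their summed signal, in units of 1000, was 52.1 to 62.5 in EN and 43.1 to 119 in AN at P0, 13.7 to 38 against 89.3 to 104 at 1 W, 31 to 46.2 against 36.8 to 260 at 3 W, and 17.5 to 34.6 against 37.2 to 63 at 5 W. Pou4f1, whose probe is the brightest of the list before that of Calca, gave between 10.1% and 96.4% of that sum. Without Pou4f1, a step chosen after the values were seen, the other 9 markers summed to 30.4 to 51.4 in EN and 33 to 106 in AN at P0, to 1.48 to 4.33 against 73.2 to 92.6 at 1 W, to 1.58 to 2.62 against 5.87 to 233 at 3 W, and to 2.13 to 3.22 against 1.84 to 25.9 at 5 W. In these sums without Pou4f1, AN replicate 3 at 3 W stood apart, with 233 against 7.83 and 5.87 in the other AN arrays of that age and an array weight of 0.226, and AN replicate 3 at 5 W had the lowest sum of its age. Isl1 was above background on no EN array at 3 W and 5 W. Of 6 motor neuron markers, Mnx1 was not tested, none of the other 5 was called between the fibres at P0, Uts2 was lower in AN at each later age, and Isl1, which sensory neurons share, was higher at 1 W. Of 7 general neuron markers 0, 4, 2 and 2 were higher in AN at the successive ages, and of 6 spinal interneuron markers 0, 1, 1 and 4, with none lower. Glial markers moved with the fibre as well. At 1 W, 3 of 5 tested oligodendrocyte precursor, 2 of 7 oligodendrocyte, 3 of 7 astrocyte and 1 of 10 Schwann cell markers were higher in AN and 1 astrocyte marker was lower, at 3 W 2 precursor and 3 Schwann cell markers were higher, and at 5 W 1 precursor, 2 oligodendrocyte, 3 astrocyte and 3 Schwann cell markers. At P0 1 Schwann cell marker was lower. No marker of fibroblasts, endothelial cells, macrophages or skeletal muscle was called at any age. The part of these markers in the results below was not tested.

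The stretches just before the start sites of Gria2, Gria4, Grik3 and Grik4 are shown because these 4 genes changed with age in EN, as described below. They are the 250 bases upstream of each RefSeq start on GRCm38.p6, written 5′ to 3′ on the gene's strand. Capitals mark GGACAGC, the core of the site of the repressor REST, and GGGCGG, the GC box, on either strand.
Gria2, GRCm38 chr3:80802836-80803085, minus strand: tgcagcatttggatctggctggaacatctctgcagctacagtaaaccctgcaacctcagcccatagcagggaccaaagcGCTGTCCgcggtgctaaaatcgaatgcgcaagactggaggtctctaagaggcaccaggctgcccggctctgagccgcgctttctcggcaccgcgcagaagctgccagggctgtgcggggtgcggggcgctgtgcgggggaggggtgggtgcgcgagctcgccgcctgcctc
Gria4, GRCm38 chr9:4796235-4796484, minus strand: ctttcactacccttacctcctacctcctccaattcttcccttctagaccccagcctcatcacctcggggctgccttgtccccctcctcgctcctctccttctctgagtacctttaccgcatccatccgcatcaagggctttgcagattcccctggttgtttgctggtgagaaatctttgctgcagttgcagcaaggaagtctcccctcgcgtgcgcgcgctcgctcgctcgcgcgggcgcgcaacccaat
Grik3, GRCm38 chr4:125490446-125490695, plus strand: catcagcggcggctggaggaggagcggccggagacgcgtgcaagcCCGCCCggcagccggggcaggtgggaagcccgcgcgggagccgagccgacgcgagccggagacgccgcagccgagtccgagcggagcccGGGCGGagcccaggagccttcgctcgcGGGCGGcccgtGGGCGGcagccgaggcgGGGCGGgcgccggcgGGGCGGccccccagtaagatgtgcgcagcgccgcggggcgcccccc
Grik4, GRCm38 chr9:42944372-42944621, minus strand: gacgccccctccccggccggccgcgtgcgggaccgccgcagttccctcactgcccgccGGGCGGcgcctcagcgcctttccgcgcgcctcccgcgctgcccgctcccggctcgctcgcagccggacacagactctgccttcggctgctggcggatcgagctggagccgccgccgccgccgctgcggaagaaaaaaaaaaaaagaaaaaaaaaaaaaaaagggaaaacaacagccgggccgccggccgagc
GGACAGC stood once in the Gria2 window, on the reverse strand, and in 5.29% of all 27025 windows of this length. GGGCGG stood 6 times in the Grik3 window, once in that of Grik4 and not in those of Gria2 and Gria4, against 32.9% of all windows with a match. The windows held 19 (Gria2), 16 (Gria4), 42 (Grik3) and 36 (Grik4) CpG pairs, where the median over all windows was 6 and the upper quartile 16. The Grik2 and Grik5 windows, with 20 and 8 CpG pairs, held no GGACAGC, that of Grik5 held GGGCGG in 2 places, and no window was used for Gria1, Gria3 and Grik1. These matches describe the letters and say nothing of binding.

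The first question of the design was which genes differed between afferent and efferent nerve fibres at each age. At P0, none of the 9 genes was called, with none at an unadjusted p below 0.05 and a fold above 2 either, where 0.327% of all tested probes were called with and 1.11% without adjustment. At 1 W, Grik3 and Grik4 were higher in AN (2 of 9, where 2.8% of all tested probes were called and 2.41% were called higher), at 3 W Gria4 and Grik3 (2 of 9, background 3.13% and 2.24%), and at 5 W Gria2, Gria4 and Grik3 (3 of 9, background 3.34% and 2.51%). No member was called lower in AN at any age. The AN and EN arrays did not overlap for 1 of 9 genes at P0 (Grik2, 13.3% of all tested probes), and for 5 at 1 W (24.7%), 6 at 3 W (32.7%) and 5 at 5 W (20.1%). AN lay below EN for 2 of those at 1 W (Gria1 and Gria3) and 1 at 3 W (Grik1), and above EN for the others. The median AN-EN difference of the 9 genes was 0.11, 0.10, 0.51 and 1.40 at the 4 ages in turn, beside 0.006, -0.069, -0.031 and -0.031 over all tested probes. The 5 W median rests on single arrays, with 0.79 without EN replicate 3, where Grik1 turned from 1.79 (adjusted p = 0.413) to -0.68 (0.13), and 0.76 without AN replicate 2. In bulk RNA, a different number of cells of a type and a different amount of RNA per cell cannot be told apart.

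**Figure D1:**
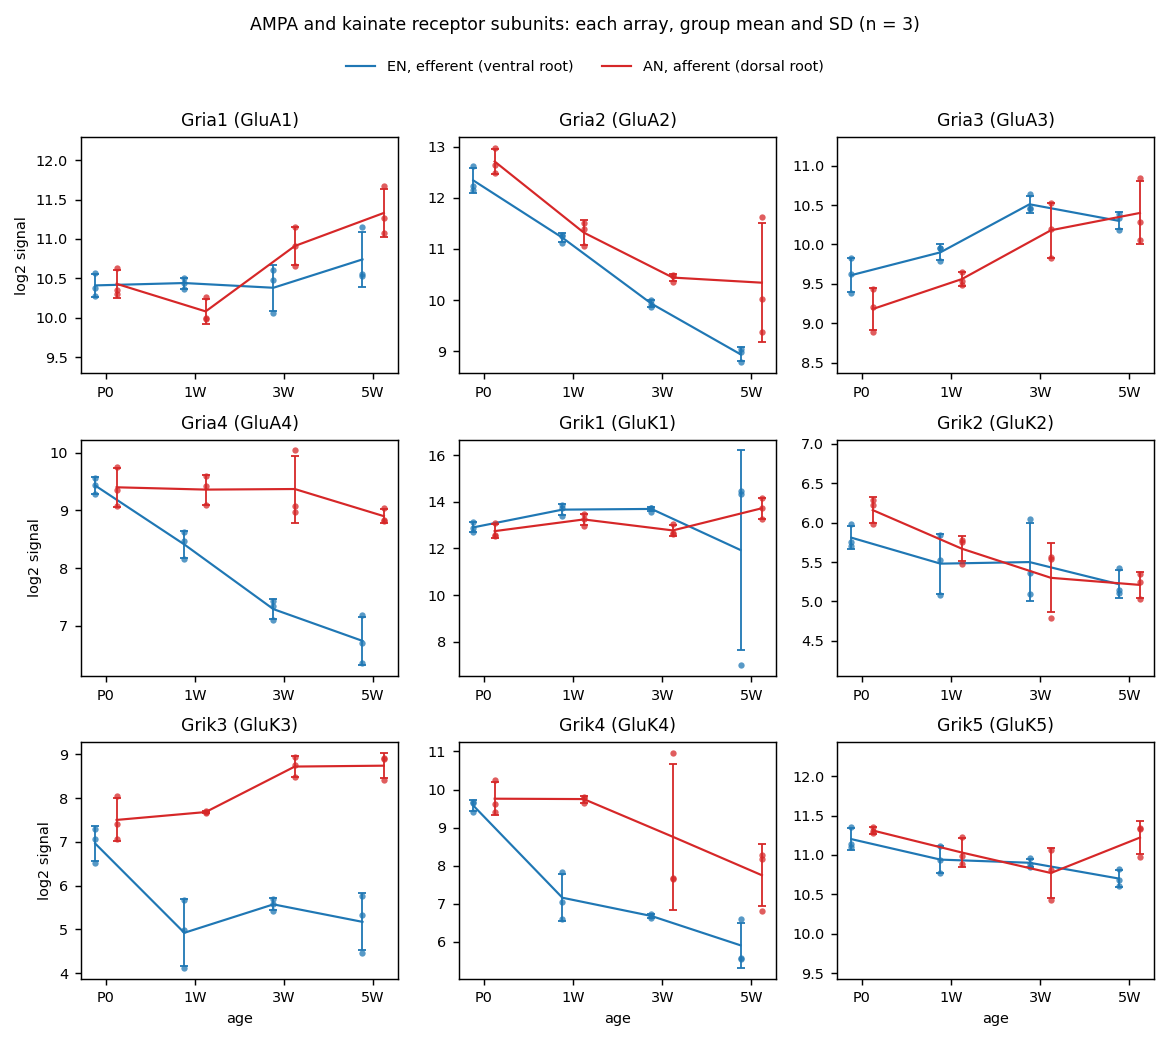
Log2 signal (vertical axes, each with its own range) of the chosen probe of each gene at each age. Points are single arrays, lines join group means and bars are SD (n = 3), with EN in blue and AN in red. Gria4 and Grik3 separate with age, Gria2 falls in both fibres, Gria3 rises in AN, and the Grik1 probe has 1 EN array at 7.00 at 5 W.

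Of the AMPA receptor genes, Gria4 showed the largest fibre difference. Its probe lies at mm9 chr9:4417896-4417955. In EN it read 9.56, 9.44 and 9.28 at P0, 8.15, 8.47 and 8.62 at 1 W, 7.43, 7.10 and 7.35 at 3 W, and 6.70, 6.35 and 7.18 at 5 W. In AN it read 9.76, 9.35 and 9.08 at P0, 9.42, 9.59 and 9.09 at 1 W, 9.08, 8.98 and 10.04 at 3 W, and 8.82, 8.83 and 9.04 at 5 W. The fibres overlapped at P0 only, and from 1 W on every AN array was above every EN array of its age. AN exceeded EN by 0.95 ± 0.25 (SE) at 1 W, which passed the adjusted p (0.0406, limma) but not the fold, and by 2.08 ± 0.25 (4.22-fold, adjusted p = 7.46e-05) at 3 W and 2.15 ± 0.25 (4.45-fold, adjusted p = 4.26e-05) at 5 W. In EN, Gria4 fell below P0 by 1.01 at 1 W (adjusted p = 0.0063), by 2.14 at 3 W (1.52e-06) and by 2.68 ± 0.25 at 5 W (6.43-fold, 6.79e-08). In AN the differences from P0 were -0.03, -0.03 and -0.50, and none passed (adjusted p = 0.945, 0.935 and 0.108). The change of the fibre difference since P0 was itself called, with 2.11 ± 0.36 at 3 W (adjusted p = 0.00964) and 2.18 ± 0.36 at 5 W (adjusted p = 0.00503), among 0.53% and 0.948% of all tested probes.

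In order of level, the AN groups at P0, 1 W and 3 W and EN at P0 lay within 9.36 to 9.43 and overlapped, followed by AN at 5 W (8.90) and by EN at 1 W (8.41), 3 W (7.29) and 5 W (6.74), the last pair overlapping. Both further Gria4 probes were called higher in AN at 3 W and 5 W too. Probe A_52_P279527 differed by 1.2 ± 0.32 at 1 W (adjusted p = 0.0376) and by 2.07 ± 0.32 at 3 W (adjusted p = 5.92e-04), with 1 of 3 EN arrays above background at 3 W, and was above background on no EN array at 5 W, which bounds the 5 W difference at 3.04-fold or more (adjusted p = 1.19e-04). Probe A_52_P349182 was above background on no EN array from 1 W on, with bounds of at least 2.46-fold at 3 W (adjusted p = 0.00153) and at least 1.71-fold at 5 W (adjusted p = 7.81e-04). Without AN replicate 3 at 3 W, the 3 W difference of the chosen probe was 1.74 (adjusted p = 2.35e-04). The part of the sensory neuron markers in these differences was not tested.

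Gria2 (mm9 chr3:80492452-80492511), the subunit that sets calcium permeability, fell with age in both fibres. In EN it read 12.15, 12.62 and 12.24 at P0, 11.11, 11.28 and 11.26 at 1 W, 9.86, 9.92 and 10 at 3 W, and 8.99, 9.05 and 8.78 at 5 W. In AN it read 12.65, 12.98 and 12.49 at P0, 11.39, 11.06 and 11.51 at 1 W, 10.49, 10.48 and 10.35 at 3 W, and 10.02, 11.63 and 9.37 at 5 W. The fibres overlapped at P0 and 1 W, did not at 3 W and 5 W, and in EN the 4 ages did not overlap at all. In EN it fell by 1.12 ± 0.35 from P0 to 1 W (adjusted p = 0.0218), fell by 2.41 to 3 W (1.28e-05) and fell by 3.4 to 5 W (10.5-fold, 1.68e-07). In AN it fell by 1.39 ± 0.35 to 1 W (adjusted p = 0.00727), fell by 2.27 to 3 W (2.67e-05) and fell by 2.37 to 5 W (5.15-fold, 1.40e-05). At 5 W, AN exceeded EN by 1.40 ± 0.35 (2.64-fold, adjusted p = 0.0182). That difference rests on AN replicate 2, without which it was 0.76 (adjusted p = 0.0365) and below the fold, and without EN replicate 3 its adjusted p was 0.0632. The same AN array held the highest summed spinal interneuron signal of the AN arrays at 5 W, in units of 1000: 6.84 against 2.01 and 1.34. Its sums were also the highest for general neurons (52 against 30.8 and 8.94), astrocytes (35 against 25 and 27.4), oligodendrocytes and their precursors, and endothelial cells. Its sums for sensory and motor neurons, Schwann cells, fibroblasts, macrophages and skeletal muscle were not the highest. Whether any of this bears on Gria2 was not tested. The change of the fibre difference from P0 to 5 W was 1.03 ± 0.49 (adjusted p = 0.458) and not called. Both further Gria2 probes fell in both fibres, A_55_P2737972 by 4.31 ± 0.56 in EN (adjusted p = 3.40e-06) and 3.02 ± 0.56 in AN (1.85e-04) from P0 to 5 W. Probe A_65_P00930 fell in AN by 2.62 ± 0.52 (adjusted p = 3.50e-04), and in EN at least 8.06-fold (adjusted p = 4.54e-06), since no 5 W array of EN showed it above background. Neither was called between the fibres at 5 W, where A_55_P2737972 differed by 1.48 (adjusted p = 0.129) and A_65_P00930 by at least 1.52-fold (adjusted p = 0.0954).

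The chosen probe of Gria3, the X-linked AMPA subunit (mm9 chrX:38965889-38965948), rose with age, but its other probes did not follow. In AN it read 9.21, 8.89 and 9.43 at P0, 9.48, 9.65 and 9.54 at 1 W, 10.20, 10.52 and 9.83 at 3 W, and 10.06, 10.29 and 10.84 at 5 W, and the 3 W and 5 W arrays were all above those at P0. The rise over P0 was 1.01 ± 0.19 at 3 W (2.01-fold, adjusted p = 2.69e-04) and 1.22 ± 0.19 at 5 W (2.33-fold, 3.41e-05). In EN the group means were 9.61, 9.90, 10.51 and 10.30, and the differences from P0 of 0.90 at 3 W (adjusted p = 6.86e-04) and 0.69 at 5 W (0.00555) passed the adjusted p but stayed under a fold of 2. The AN calls lie close to the fold threshold, the 3 W call being lost without AN replicate 2 at P0 or replicate 1 or 2 at 3 W and the 5 W call without replicate 3 at 5 W. With slide as a block the 3 W rise was 0.67 (adjusted p = 0.0729), and with normexp background correction 0.86 (2.29e-04), neither called. The AN calls were not shared by the other probes: from P0 to 5 W in AN, A_52_P68221 differed by 0.32 (adjusted p = 0.352) and A_66_P132292 by 0.21 (adjusted p = 0.349), and the latter fell by 1.18 in EN from P0 to 1 W (adjusted p = 1.15e-04). At 3 W in AN, A_52_P68221 averaged 8.48, below its 9.15 at P0 and without overlap, and A_66_P132292 averaged 8.12 against 8.18. With the mean of the gene's probes, the AN differences from P0 were 0.09 at 3 W (adjusted p = 0.658) and 0.58 at 5 W (0.00651). Gria1, the subunit known for its role in activity-dependent receptor insertion, was not called in any comparison. It read 10.63, 10.35 and 10.30 in AN at P0 and 11.07, 11.67 and 11.26 at 5 W, a difference of 0.91 ± 0.19 (adjusted p = 6.91e-04) below the fold threshold, and 10.41 and 10.74 on average in EN (adjusted p = 0.154). Its second probe A_66_P116640 passed both thresholds from P0 to 5 W, by 1.02 ± 0.23 in AN (adjusted p = 0.0013) and 1.02 ± 0.23 in EN (adjusted p = 0.00114).

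**Figure D2:**
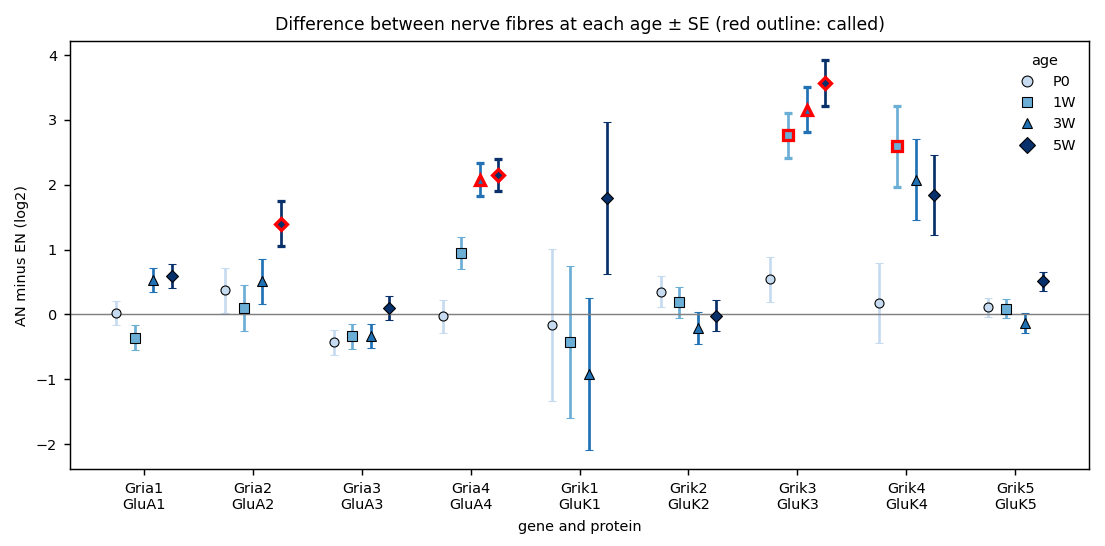
AN minus EN in log2 units (vertical axis) for each gene (horizontal axis) at the 4 ages, with SE bars from the limma fit. Red outlines mark called differences: Grik3 at 1 W (2.76), 3 W (3.16) and 5 W (3.57), Gria4 at 3 W and 5 W, Gria2 at 5 W and Grik4 at 1 W. The wide bars of Grik1 come with 1 EN array at 7.00.

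Among the kainate receptor genes, Grik3, a subunit of low glutamate sensitivity, had the largest fibre difference of the 9 chosen probes from 1 W on. Its 1 probe lies at mm9 chr4:125391317-125391376. In EN it read 7.29, 7.07 and 6.52 at P0, 4.12, 4.99 and 5.66 at 1 W, 5.58, 5.41 and 5.70 at 3 W, and 4.46, 5.32 and 5.75 at 5 W. In AN it read 8.04, 7.40 and 7.07 at P0, 7.71, 7.66 and 7.68 at 1 W, 8.75, 8.48 and 8.94 at 3 W, and 8.91, 8.41 and 8.90 at 5 W. EN and AN overlapped at P0 and at no later age, and the EN signal was above background on 2 of 3 arrays at 1 W and at 5 W. AN exceeded EN by 0.54 ± 0.35 at P0 (adjusted p = 0.942), by 2.76 ± 0.35 at 1 W (6.77-fold, adjusted p = 3.84e-04), by 3.16 at 3 W (8.93-fold, 2.33e-05) and by 3.57 at 5 W (11.8-fold, 5.38e-06). With normexp background correction these 3 differences were called but smaller, at 1.46, 2.09 and 2.22. Within the replicate pairs the difference was 2.03 to 3.59 at 1 W, 3.07 to 3.24 at 3 W and 3.09 to 4.45 at 5 W.

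The fibres moved in opposite directions. In EN, Grik3 fell from P0 by 2.04 at 1 W (adjusted p = 3.20e-04), by 1.39 at 3 W (0.0024) and by 1.79 at 5 W (2.59e-04), each ± 0.35. In AN it differed from P0 by 0.18 at 1 W (adjusted p = 0.768) and rose by 1.22 at 3 W (0.00646) and 1.24 at 5 W (0.00592), with a called step of 1.04 from 1 W to 3 W (adjusted p = 0.0295). The fibre difference was larger than at P0 by 2.61 ± 0.49 at 3 W (adjusted p = 0.0163) and by 3.02 ± 0.49 at 5 W (adjusted p = 0.0044). At 1 W none of the 9 genes passed this test in limma after adjustment (background 0.0632%), and 2 did without it (background 3.77%), Grik3 (2.22 ± 0.49, adjusted p = 0.131) and Grik4 (2.41 ± 0.88, adjusted p = 0.43). With the replicate number as a block within age, Grik3 passed at 1 W (adjusted p = 0.0473). Without AN replicate 3, the 3 W difference was 3.05 (adjusted p = 2.09e-04). The change since P0 at 3 W missed the threshold without EN replicate 1 at P0 (2.45, adjusted p = 0.0514), AN replicate 3 at P0 (2.40, 0.0572) or EN replicate 2 at 3 W (2.54, 0.051). The part of the sensory neuron markers in the Grik3 differences was not tested. On slide 3, which held P0 and 5 W of both fibres, Grik3 at 5 W lay 1.17 above P0 in AN and differed by -1.48 in EN. With slide as a block the AN rise at 3 W was 0.70 (adjusted p = 0.324) and not called, and with normexp background correction the changes against P0 lay under a fold of 2 in both fibres, at -0.97, -0.74 and -0.85 in EN and 0.97 and 0.98 in AN at 3 W and 5 W.

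Grik4 (mm9 chr9:42328570-42328629), a high-affinity subunit, fell in both fibres, with the first called fall at 1 W in EN and at 5 W in AN. In EN it read 9.40, 9.66 and 9.67 at P0, 6.60, 7.05 and 7.83 at 1 W, 6.72, 6.64 and 6.69 at 3 W, and 5.54, 5.59 and 6.59 at 5 W, where 2 of 3 arrays were above background. In AN it read 9.63, 10.24 and 9.41 at P0, 9.65, 9.79 and 9.81 at 1 W, 7.67, 7.65 and 10.96 at 3 W, and 8.27, 8.18 and 6.81 at 5 W. From 1 W on all AN arrays were above the EN arrays of their age, but replicate 3 stood far above the others at 3 W and below them at 5 W. AN exceeded EN by 2.59 ± 0.62 at 1 W (6.03-fold, adjusted p = 0.0216), by 2.08 ± 0.62 at 3 W (adjusted p = 0.0555) and by 1.84 ± 0.62 at 5 W (adjusted p = 0.0858). The 1 W call was lost without any 1 of 5 of the 6 arrays at 1 W, with adjusted p between 0.0667 and 0.123 and differences of 2.31 to 2.64. Without AN replicate 3 the 3 W difference was 0.98 (adjusted p = 0.223), and with replicate pairs within age as a block it was called (2.08, adjusted p = 0.0439). The 5 W difference was called without AN replicate 3 at 5 W (2.31, adjusted p = 0.0375), without AN replicate 3 at 3 W (1.84, 0.00321) and with array weights (2.25, 0.0121). In EN it fell by 2.42 from P0 to 1 W (adjusted p = 0.0073), fell by 2.90 to 3 W (7.20e-04) and fell by 3.67 to 5 W (12.7-fold, 6.72e-05). In AN it fell by 2.01 ± 0.62 to 5 W (4.02-fold, adjusted p = 0.0115). Without AN replicate 3 at 5 W that difference was -1.54 (adjusted p = 0.0699) and not called. At 3 W the difference from P0 was -1 (adjusted p = 0.187) with and -2.10 (adjusted p = 3.22e-04) without replicate 3. The changes of the fibre difference since P0, 2.41, 1.90 and 1.66 in order of age, were not called (adjusted p = 0.43, 0.52 and 0.54). The change at 1 W was called without AN replicate 3 at 3 W (2.41, adjusted p = 0.0208), with only the arrays compared (2.41, 0.0196) and with array weights (2.56, 0.0153).

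**Figure D3:**
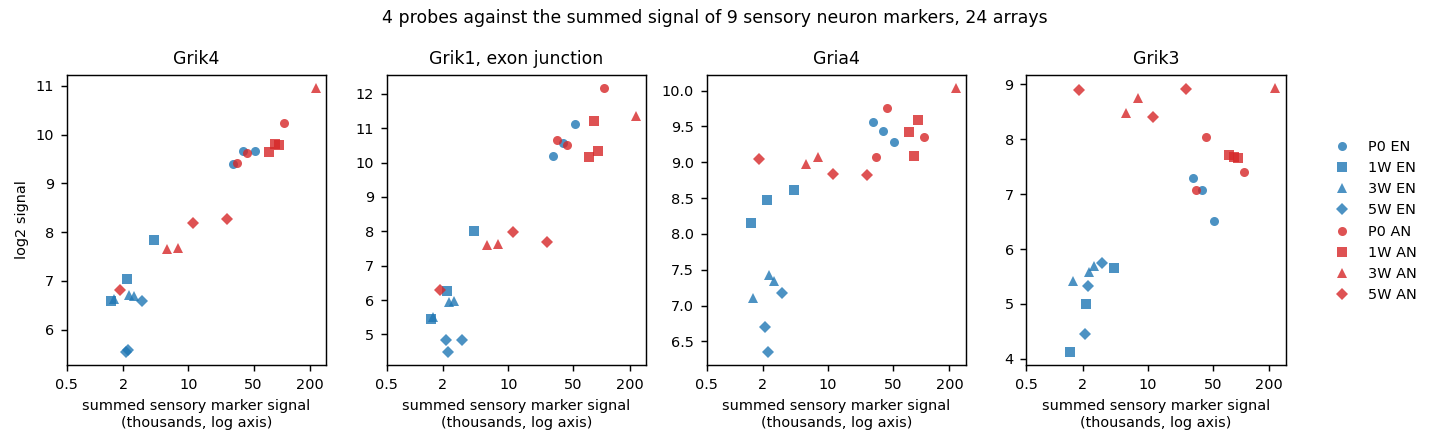
Log2 signal of 4 probes (vertical axes) against the summed signal of 9 sensory neuron markers (horizontal axes, in units of 1000, log scale) on all 24 arrays, EN in blue and AN in red, with symbols for age. Pou4f1 was left out of the sum after the values were seen. AN replicate 3 at 3 W lies at 233 on the horizontal axis and AN replicate 3 at 5 W at 1.84. With Pou4f1 kept, their sums were 260 (65.8 and 36.8 in the other AN arrays at 3 W) and 39.3 (63 and 37.2 in those at 5 W). The low place of the 5 W array thus depends on leaving Pou4f1 out. At 1.84, Grik4 read 6.81, against 6.59 or less in EN and 8.18 or more in the other AN arrays at 5 W. The Grik1 exon-junction probe read 6.30, between 4.83 or less in EN and 7.70 or more in the other AN arrays. Gria4 read 9.04 and Grik3 8.90, near the other AN arrays. At 233, all 4 probes read highest of the AN arrays at 3 W. Grik4 read 10.96, Grik1 11.37, Gria4 10.04 (9.08 and 8.98 in the others) and Grik3 8.94 (8.75 and 8.48). Arrays of a group share age and fibre, and no test was run on these relations.

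Grik1 was the member whose reading depended most on the probe. The chosen probe, A_55_P2731016 at mm9 chr16:87935520-87935579, is annotated in the deposited files to a retina cDNA clone of Grik1 and lies between the exon ends joined by probe A_66_P123972 (chr16:87923523-87936177), 598 bases inside the nearer end. The sequences of these probes, with that of the other exon-junction probe A_55_P2805339 (chr16:87896544-87914404), are shown to tell apart what each one reads, without capitals because no letters were singled out.
A_55_P2731016, between exons: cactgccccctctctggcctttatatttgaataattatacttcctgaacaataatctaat
A_66_P123972, exon junction: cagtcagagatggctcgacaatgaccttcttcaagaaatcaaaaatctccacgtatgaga
A_55_P2805339, exon junction: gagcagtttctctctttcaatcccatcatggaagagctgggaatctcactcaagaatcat
The chosen probe read 12.54 to 14.47 on 23 of the 24 arrays and was called in no comparison. The exception was EN replicate 3 at 5 W, with 7.00 against 14.47 and 14.32, a deposited signal of 64 against 23400 and 24800. Without that array, the probe rose in EN from P0 to 5 W by 1.5 (adjusted p = 5.67e-05).

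The exon-junction probe A_55_P2805339 took another course. In EN it read 10.20, 10.58 and 11.12 at P0, 5.45, 6.26 and 8.00 at 1 W, 5.94, 5.51 and 5.96 at 3 W, and 4.83, 4.48 and 4.83 at 5 W, where 1 of 3 arrays was above background. In AN it read 10.52, 12.18 and 10.66 at P0, 10.17, 10.34 and 11.22 at 1 W, 7.64, 7.59 and 11.37 at 3 W, and 7.70, 7.97 and 6.30 at 5 W. As for Grik4, AN lay above EN from 1 W on, with replicate 3 far above the other AN arrays at 3 W and below them at 5 W. AN exceeded EN by 4.00 ± 0.80 at 1 W (16-fold, adjusted p = 0.00719), by 3.06 ± 0.80 at 3 W (adjusted p = 0.0282) and by 2.61 ± 0.80 at 5 W (adjusted p = 0.0561), with pair differences of 1.69, 2.08 and 5.41 at 3 W. Without AN replicate 3 the 3 W difference of the means was 1.81. It fell from P0 by 4.06, 4.83 and 5.92 in EN at the later ages in turn (adjusted p = 0.00104, 5.76e-05 and 5.11e-06) and by 3.80 in AN at 5 W (adjusted p = 5.78e-04). The second junction probe and the 3′-most probe A_51_P282609 gave called differences in the same directions at 1 W and 3 W, with AN-EN values of 4.09 and 4.14 at 1 W. Both were above background on no EN array at 3 W and 5 W, so that their 3 W differences are bounds of at least 4-fold and at least 5.75-fold (adjusted p = 0.0282 and 0.0196). With 1 AN array left out, these bounds ran from 1.54-fold and 2.23-fold (replicate 3) to 7.17-fold and 9.61-fold (replicate 2). A further probe, A_66_P131466, was not tested.

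**Figure D4:**
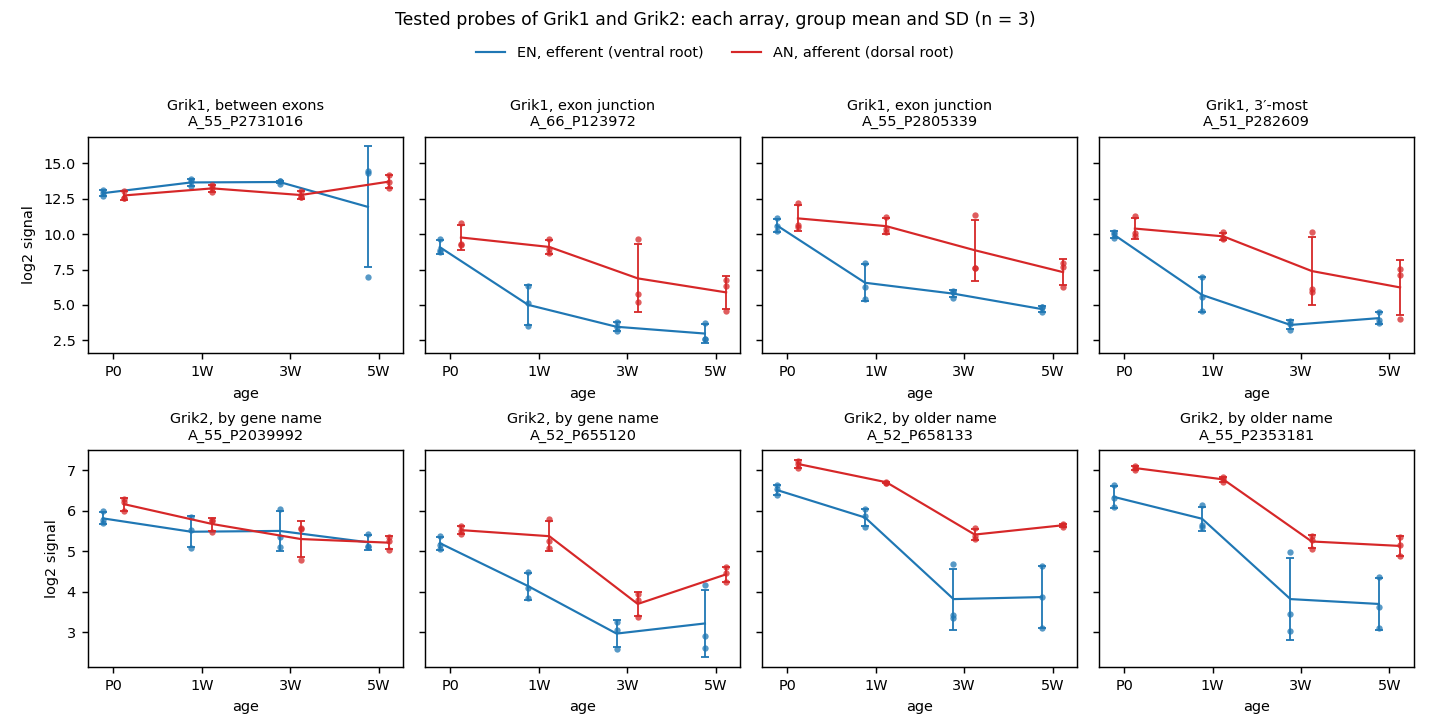
Log2 signal (vertical axes, shared within a row) by age for 4 tested probes of Grik1 (top) and 4 of Grik2 (bottom). The first Grik1 probe lies within the span of the second. Points are arrays, lines join group means and bars are SD (n = 3), EN in blue and AN in red. The bright Grik1 probe between exons reads 12.54 or more on all arrays but 1 EN array at 7.00, and the other 3 fall with age. Of the Grik2 probes the first is nearly flat and the others fall. The second was tested through AN at 1 W alone and was above background on no 3 W array, so its gap between fibres is no support for a difference. The probes by the older name lie higher in AN, with no EN array above background at 3 W and 5 W. Whether they read the receptor's message was not tested.

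Grik2 showed the same kind of split at lower signal. Its chosen probe (mm9 chr10:49243534-49243593) lies near the lower limit of detection, with group means between 5.21 and 6.16, and was called in no comparison. The AN-EN differences were 0.35, 0.19, -0.21 and -0.02 at the 4 ages, each ± 0.24, and the differences between P0 and 5 W were -0.96 in AN (adjusted p = 0.00249) and -0.59 in EN (0.0449), under a fold of 2. The second tested Grik2 probe, A_52_P655120, was called higher in AN at 1 W (at least 1.41-fold, adjusted p = 0.0252), and at 5 W (adjusted p = 0.0198) with 1 of 6 arrays above background. Only AN at 1 W showed this probe above background on all 3 arrays. It was tested through that group alone, so its 1 W call is no support for a fibre difference. Another pair of probes carry the name C130030K03Rik, annotated in the deposited files as a non-coding RNA, which the RefSeq gene table lists as an older name of Grik2. They lie 3′ of the chosen Grik2 probe, and whether they read the receptor's message was not tested. One of them, A_52_P658133 (chr10:48813552-48813611), read 6.53, 6.38 and 6.62 in EN and 7.23, 7.05 and 7.16 in AN at P0, and 5.59, 5.68 and 5.64 in AN at 5 W, where no EN array was above background. AN exceeded EN by at least 1.45-fold at 3 W (adjusted p = 0.00432) and at least 1.51-fold at 5 W (adjusted p = 0.00147), and in AN it fell from P0 to 5 W by 1.51 ± 0.31 (adjusted p = 4.58e-04). Grik5 (mm9 chr7:25794943-25795002), the other high-affinity subunit, read 10.43 to 11.36 over all 24 arrays, all 7 neighbouring pairs in the order of its group means overlapped, and its chosen probe was called nowhere. The AN-EN difference at 5 W was 0.51 ± 0.15 (adjusted p = 0.0469), with 11.33, 11.34 and 10.97 in AN and 10.82, 10.68 and 10.61 in EN, which did not overlap but differed by less than 2-fold. Its second probe A_55_P2795276 was called in AN at 3 W, where it fell from P0 by 1.06 ± 0.23 (adjusted p = 9.99e-04).

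Counted over the 9 chosen probes, EN showed 4 falls and no rise from P0 at 1 W (background 12%, falls alone 5.65%), at 3 W (30.6% and 14.4%) and at 5 W (30% and 14.5%), in each case Gria2, Gria4, Grik3 and Grik4. AN showed 1 fall at 1 W (background 8.59%, falls alone 3.62%), 1 fall and 2 rises at 3 W (27.9%, falls 12.8% and rises 15.1%), and 2 falls and 2 rises at 5 W (27.9%, falls 12.7% and rises 15.2%). The arrays did not overlap between P0 and the later ages in turn for 5, 7 and 7 genes in EN (46.5%, 71.3% and 58.9% of all tested probes) and for 5, 6 and 8 in AN (41.4%, 58.1% and 53.3%). Between successive ages, Gria2 (by 1.29, adjusted p = 0.00975) and Gria4 (by 1.12, adjusted p = 0.00313) fell in EN from 1 W to 3 W (2 of 9, background 11.7%, falls alone 6.06%) and Grik3 rose in AN (1 of 9, background 12.6%, rises alone 6.19%). From 3 W to 5 W none of the 9 was called by limma in either fibre, with none at an unadjusted p below 0.05 and a fold above 2, where the background was 1.13% in EN and 1.7% in AN, and 3.84% and 3.95% without adjustment. These comparisons share arrays, P0 above all. The 1 W falls in EN were lost for Gria2 without EN replicate 2 at P0, without EN replicate 1 or 2 at 1 W, and when slide was a block, and for Gria4 without EN replicate 1 at P0 or at 1 W and with normexp. Of the EN falls from 1 W to 3 W, that of Gria2 was lost with slide as a block (-0.44, adjusted p = 0.496) and that of Gria4 fell under the fold with normexp (-0.85, adjusted p = 0.00389). The Grik3 step in AN was lost in 8 of 33 alternatives, among them each AN array at 1 W and replicates 1 and 3 at 3 W left out. Within slides, the 1 W minus P0 difference in EN on slides 1 and 3 was -1.04 and -1.17 for Gria2, -1.41 and -0.74 for Gria4, -3.18 and -1.14 for Grik3, and -2.80 and -1.84 for Grik4, and on slide 3 the 5 W minus P0 difference was -3.39, -3.01, -1.48 and -4.07. For 3 W against P0 or 1 W, age cannot be told apart from slide. The 3 W slide held no array of either age and was scanned on a day of its own.

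The receptors are assembled, anchored and edited by other proteins, of which 42 genes were listed and 35 tested. None was called between AN and EN at P0, and at the later ages 5, 6 and 8 in turn were higher in AN, with none lower, where 2.41%, 2.24% and 2.51% of all tested probes were called higher. Over all alternatives these counts ran from 1 to 9 at 1 W, 0 to 8 at 3 W and 0 to 9 at 5 W. Both Neto genes, whose proteins bind kainate receptors and slow their currents, were among them. Neto1 read 4.64, 4.45 and 5.42 in EN and 6.37, 6.92 and 8.79 in AN at 3 W, and differed by 2.35 at 1 W (adjusted p = 0.0203), by 2.53 at 3 W (adjusted p = 0.0111, 1 EN array above background) and at least 3.69-fold at 5 W (adjusted p = 0.00525), where no EN array was above background. Without AN replicate 2 that bound was 2.23-fold. Neto2 read 6.08, 6.01 and 5.90 in EN and 7.35, 7.92 and 7.94 in AN at 3 W, and was higher in AN by 1.74 at 3 W (adjusted p = 4.34e-04) and by 1.57 at 5 W (adjusted p = 8.87e-04). From P0 to 5 W, Neto2 fell by 3.89 in EN (adjusted p = 5.77e-10) and fell by 2.78 in AN (adjusted p = 4.62e-08).

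Of 15 auxiliary proteins of AMPA receptors 12 were tested. Cacng5, a transmembrane regulatory protein, was seen above background on none of the EN arrays from 1 W on, and AN exceeded EN by at least 6.75-fold at 1 W (adjusted p = 0.00238), at least 4.7-fold at 3 W (5.89e-04) and at least 1.97-fold at 5 W (0.00405). These bounds were 2.72-fold at 3 W and 3.12-fold at 5 W without AN replicate 3, and 1.28-fold at 5 W without AN replicate 2. Gsg1l, a claudin-related subunit, was higher in AN by 2.30 at 1 W (adjusted p = 0.0135), with 1 of 3 EN arrays above background, and by at least 2.48-fold at 3 W (0.00546) and at least 1.72-fold at 5 W (0.0498), or 1.65-fold without AN replicate 3 at 3 W and 1.11-fold without AN replicate 2 at 5 W. Cacng4 was higher at 1 W (1.18, adjusted p = 0.0148) and 5 W (1.05, adjusted p = 0.0212). Of the brightest genes of this list, Cnih2 fell from P0 to 5 W by 1.08 in EN (adjusted p = 0.0111) and 1.87 in AN (1.31e-04), and Prrt1 rose by 1.39 in EN (1.89e-05) and 1.42 in AN (1.70e-05), without a call between the fibres. Of 10 scaffold and trafficking genes 9 were tested: Akap5 was higher in AN at 1 W (1.01, adjusted p = 0.0493), and Dlg2, for the synaptic scaffold PSD-93, by 3.77-fold or more at 3 W (adjusted p = 0.0144) and at least 2.1-fold at 5 W (0.0328, 1.33-fold without AN replicate 2), while the brightest, Dlg3 (0.21, adjusted p = 0.384) and Grasp (0.15, adjusted p = 0.525), were not called at 5 W.

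Among 3 RNA editing enzymes, Adarb1, whose product edits the GluA2 message, differed between the fibres by -0.19 at 5 W (adjusted p = 0.582) and rose in EN from P0 to 5 W by 1.11 (adjusted p = 3.27e-05), against 0.85 in AN (4.82e-04), below the fold threshold, while Gria2 fell. Adar, which edits RNA broadly, differed by 0.44 from P0 in each fibre (adjusted p = 0.00708 in EN and 0.00761 in AN), under the fold. Adarb2, without known editing activity, was called higher in AN at 5 W (adjusted p = 0.0215), with 1 of 3 AN arrays and no EN array above background. Cbln1, a secreted synapse organizer, was higher in AN by 2.67 at 3 W (adjusted p = 0.00897) and 2.59 at 5 W (0.0085), with 2 and 1 EN arrays above background. All 5 assembly genes were tested and none was called between the fibres at any age, the brightest, Sacm1l and Cpt1c, differing by 0.78 (adjusted p = 6.50e-05) and -0.28 (0.168) between P0 and 5 W in AN, under the fold. Of 3 neuronal pentraxins 1 was tested, Nptx2, which fell from P0 to 5 W by 2.80 in EN (adjusted p = 8.97e-04) and 2.66 in AN (0.00148). Over all tested partners, 6 rose and 14 fell in EN from P0 to 5 W (15.5% and 14.5% of all tested probes), and 6 rose and 10 fell in AN (15.2% and 12.7%). Under the alternatives tried, EN had between 4 and 14 such falls and AN between 4 and 13. The median AN-EN difference was 0.13, 0.26, 0.33 and 0.33 at the 4 ages. Without AN replicate 3 at 3 W, 4 partners were called at 3 W (Cacng5, Cbln1, Gsg1l and Neto2), Neto1 and Dlg2 no longer among them, beside 0 of 10 sensory neuron markers.

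**Figure D5:**
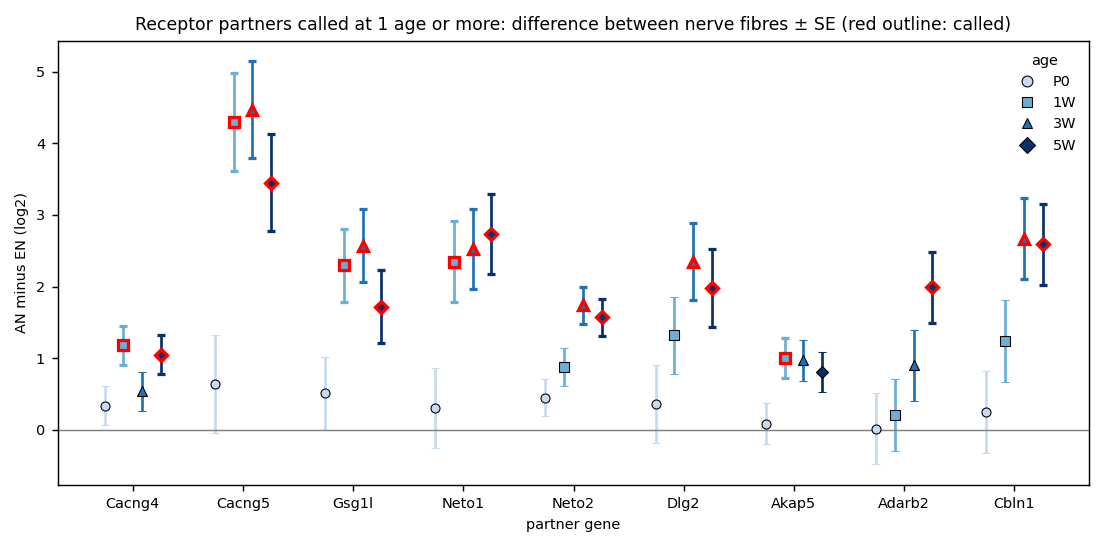
AN minus EN in log2 units (vertical axis) with SE bars for the 9 receptor partners called at 1 age or more (horizontal axis), for the 4 ages. Red outlines mark calls, and every called value is above 0. Values of Cacng5, Gsg1l, Neto1, Dlg2 and Adarb2 at ages without an EN array above background are fitted differences and not measured folds.

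The genes most like each member were taken from 17618 genes with 1 probe each, by Pearson's r over the 24 arrays, which share age, fibre and slide. Grik4 was most like Elavl2, which encodes a neuronal RNA-binding protein (r = 0.992), Rprm and Galnt14 (both 0.989), and the Grik1 junction probe most like Rprm (0.989), Elavl2 and Trim67 (both 0.986). Gria2 was closest to AW551984 (0.987), Syt13 (0.965) and Spag5 (0.964), and Gria4 to Adam23, Cntn1 (both 0.942) and Sstr1 (0.94). Grik3 had looser neighbours in Acsbg1 (0.909), Nrn1 (0.907) and Gpr83 (0.904), as did Gria1 in Fxyd1 (0.865), Grik2 in Suv39h1 (0.832) and Grik5 in Begain (0.791). Gria3 was most like Diaph2, Gm15645 (both 0.95) and Aff1 (0.949), and the chosen Grik1 probe, led by 1 array, like Zmym3 (0.964). Over the 8 group means r for the first-named genes was 0.997 for Grik4, 0.993 for Gria2, 0.961 for Gria4 and 0.958 for Grik3.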

How the data were processed

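Expression was measured in EN and AN fibres on 24 arrays, 3 for each fibre and age, grouped by the fibre and age on the deposited labels. Per-spot fluorescence intensity was deposited as written by Agilent Feature Extraction 10.7.1.1, after background subtraction and spatial detrending, together with its marks for outliers and for signal clearly over background. A table of log2 values was deposited by the authors too, quantile normalized and processed with GeneSpring according to the methods. Probe positions are on mm9, per the file headers. The number of arrays, 3 a group, limits the precision.

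The background-subtracted intensity was used, outlier spots were left out (251 values of tested probes), spots of a probe were averaged, and log2 values were quantile normalized over 56605 gene probes. Subtracting a background estimate makes dim signals uncertain. For a dimmer group without any array above background, "at least" folds are the brighter mean over the higher of the array's lowest signal well above background and the probe's own value. The 8 group means were fitted with limma 3.58.1 in R 4.3.3 over the 36398 tested probes (16 residual degrees of freedom, 18.38 in total), without a block, and in each comparison p values were adjusted over the tested probes. The methods name limma, p below 0.05 and a fold above 2, without saying whether p was adjusted. The fit was run on simulated data with independent noise on each array. These held no pairs and no slide effects, so the run says nothing of those. Same-numbered AN and EN arrays of an age deviated together from their group means (correlation between 0.106 and 0.665 in all 12 pairs, above the minimum of 0.1). Those arrays shared a slide as well. The correlation was lowest at 3 W (0.188, 0.106 and 0.215), where differently numbered arrays reached 0.118. The numbers were taken to pair the arrays of an age. Fits with the replicate number as a block, within age and over all arrays, were alternatives. Other alternatives were the unadjusted p, scaling to the 75th percentile, the authors' log2 table, normexp (offset 50), other filters on dim probes, the slide as a block, array weights, only the arrays compared, each array left out and the mean of a gene's probes.

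The genes named are the 9 members, the partners called between AN and EN at any age with the brightest 2 of each partner list, the 3 genes most like each member, and the brightest 2 of each marker list, of which those of sensory neurons bear on a result here. Some partner results that this rule names are not reported here. The members and lists were chosen with earlier results of these data known. Genes were named through RefSeq gene tables of GRCm38.p6, by accession for 32994 probes, by name for 10224 and by an older name for 520, with 12867 unnamed, and the promoter windows and probe sequences come from RefSeq (GRCm38.p6) and from the deposited array files. Python 3.11.15 with pandas 2.3.3 and matplotlib 3.10.9 made the tables and figures.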

Additional observations from a re-analysis of the deposited data

Results flagged for a closer look

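The AN-EN difference of 2 genes changed between ages by limma's test of that change. For Gria4 (probe A_55_P1987725) the difference at 3 W was 2.11 larger in log2 units than that at P0 (adjusted p = 0.00964), and at 5 W 2.18 larger (adjusted p = 0.00503). For Grik3 (probe A_66_P120555) it was 2.61 larger at 3 W (adjusted p = 0.0163) and 3.02 larger at 5 W (adjusted p = 0.0044). All 3 replicate pairs at 3 W and at 5 W had a higher AN signal for both genes.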

How the results depend on the processing

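With the authors' log2 table, and with the replicate block over all arrays, all 153 member results kept their direction and side of the threshold. That block ties equal numbers across ages and is not the pairing of AN and EN within an age. The replicate block within age, which does pair them, left 61 member results the same. It added a call for Grik4 (AN-EN at 3 W, 2.08, adjusted p = 0.0439) and for Grik3 (change of the fibre difference at 1 W, making 1 call in place of 0). That count was 2 with unadjusted p, 3 with array weights and 1 with only the arrays compared, which also left 0 of 3 AN-EN calls at 5 W (adjusted p = 0.377 for Gria2, 0.059 for Gria4 and 0.0504 for Grik3) and 1 of 2 changes at 5 W. Requiring signal on all 24 arrays removed Grik2, Grik3 and Grik4 from the test, which left AN-EN counts of 0 at 1 W and 1 at 3 W, 2 falls in EN at each age, 2 calls in AN at 5 W, and 1 change each at 3 W and 5 W. Normexp left 2 calls in EN at 1 W and 1 in AN at 3 W. The mean of a gene's probes gave 4 AN-EN calls at 1 W and 5 at 5 W. It and the probes added after seeing the data turned values of the chosen Grik1 and Grik2 probes. For Grik1, the mean and the junction probe gave AN-EN 2.95 and 4.00 at 1 W, the junction probe 3.06 at 3 W, EN against P0 -2.91 and -4.06 at 1 W and -4.01 and -4.83 at 3 W, and AN against P0 -2.03 and -2.26 at 3 W and -2.71 and -3.80 at 5 W. The Grik2 mean took in the C130030K03Rik probes and is no separate check on them, which holds for its AN-EN call at 5 W too. For Grik2, the mean and the C130030K03Rik probe gave -1.29 and -2.02 in EN between 1 W and 3 W. The probe gave 1.60 AN-EN at 3 W, and at 5 W the mean gave 1.1 and the probe 1.77. These C130030K03Rik values are fitted against EN arrays without signal above background at 3 W and 5 W, and bound the folds at 1.94, 1.45 and 1.51 or more in turn. Grik1 also turned with slide as a block (3.66 in AN between 1 W and 3 W) and without EN replicate 3 at 5 W (in EN from P0 to 5 W, where leaving out 1 array gave -2.24 to 1.5). These turns are not separate. The slide block moves 3 W values through replicate 3 of AN and EN at 5 W, and that EN array is the one at 7.00. Leaving out each array in turn, AN-EN counts ran from 0 to 0 at P0, 1 to 3 at 1 W, 2 to 3 at 3 W and 2 to 4 at 5 W, EN counts from 2 to 4, 4 to 5 and 4 to 5, AN counts from 1 to 1, 2 to 4 and 3 to 5, and changes from 0 to 2, 1 to 2 and 2 to 2 at 1 W, 3 W and 5 W. Causes of these shifts were not tested beyond the arrays or probes removed. Signal over background limits Grik3, Grik4 and the Grik1 junction probe in EN, where it fell to the detection limit on some arrays.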
